A study of Mus musculus with 4 samples.

Results

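The 10 genes described here take up, carry or store lipid, and they were followed across the stromal cell types of the mouse thymus at 6 months of age. They are Lpl, Gpihbp1, Angptl4, Cd36, Fabp4, Fabp5, Rbp7, Plin2, Aqp7 and Pparg, and all 10 were found among the 32285 features of the count matrices. They were selected on measured values, since Angptl4, Plin2 and Rbp7 were higher in the endothelium of the mutant libraries, so the endothelial values of the 10 genes are compared between genotypes only as a description, and no call on them is used. Droplet-based 3′ RNA-seq had been run on CD45-negative thymic cells in 4 libraries, 2 of them from wild-type C57BL/6 mice, called mock in the labels and WT here, and 2 from mice homozygous for the LacZ allele of Foxn1 (Z/Z), an allele that leaves reduced function of this transcription factor of thymic epithelial cells. No treatment was given to either group. Thymi of several mice were digested together for a library and CD45-positive cells were depleted before sorting, so the animals behind a library cannot be separated. The sex is stated as female in the protocol and as male in the sample characteristics.

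Triglyceride-rich lipoproteins in blood are hydrolysed at the capillary wall by lipoprotein lipase (Lpl). Parenchymal and stromal cells secrete the enzyme, and Gpihbp1 on endothelial cells carries it across the vessel wall and holds it at the lumen. Angptl4 is a secreted inhibitor of this lipase. The released fatty acids enter cells through the transporter Cd36 and are carried in the cytosol by the binding proteins Fabp4 and Fabp5, while Rbp7 binds retinol. Plin2 coats lipid droplets, Aqp7 is a channel for glycerol, and Pparg is a nuclear receptor that drives many genes of lipid storage.

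Cells were assigned to lineages by clusters built without these 10 genes and named by marker genes, so endothelial, capillary and similar names mean cells like that type. The 4 libraries held between 8468086 and 50705511 UMIs, and from 456 to 4455 cells were kept in each. Endothelial cells numbered 109 in WT 1 and 25 in WT 2, against 695 in Z/Z 1 and 670 in Z/Z 2, and their summed UMIs were 936972, 190088, 5168317 and 4785632. Among the endothelial sums, that of WT 2 therefore has the widest counting intervals. Each group had 2 libraries, so p-values measure only the spread between these libraries. Libraries of 1 genotype shared called barcodes, 202 between the WT libraries (7.40% and 16.9% of their barcodes) and 249 between the Z/Z libraries (4.48% and 5.53%), while libraries of different genotype shared 0 to 6. Of the endothelial cells, 0, 0, 1 and 0 were dropped when each shared barcode was kept in 1 library only. That step left each call on the 10 genes as it was. The source of the sharing was not tested. Anything else that the libraries of 1 genotype have in common cannot be told apart from genotype, with or without that step. Foxn1, which checks the labels, stood at 90.4 and 127 CPM (UMIs of the gene per 1000000 UMIs of the summed cells) in the TECs (thymic epithelial cells) of WT 1 and WT 2 and at 51.4 and 69.0 in those of Z/Z 1 and Z/Z 2, with a log2 fold change of -0.70 ± 0.24 (SE) that missed the threshold (edgeR adjusted p = 0.0877). Where the 3′ tags lie relative to the inserted cassette was not examined.

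Promoter sequence was at hand for 5 of the 10 genes, and the 250 bases before the start are printed for Plin2 and Rbp7, both of which were among the genes the choice rested on. The sequences are from RefSeq on GRCm38.p6, 5′ to 3′ on the strand of the gene, and the windows lie at chr4:86670060-86670309 (minus strand) for Plin2 and chr4:149454969-149455218 (minus strand) for Rbp7. Capitals mark every match, on either strand, to AGGNCA, the hexamer that nuclear receptors such as Pparg read as a repeat, and to ACGTG, the core of the hypoxia response element.
Plin2: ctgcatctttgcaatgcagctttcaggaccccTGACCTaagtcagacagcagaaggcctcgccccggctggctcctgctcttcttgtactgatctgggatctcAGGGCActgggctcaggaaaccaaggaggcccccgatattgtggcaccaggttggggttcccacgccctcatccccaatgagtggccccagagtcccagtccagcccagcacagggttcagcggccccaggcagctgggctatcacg
Rbp7: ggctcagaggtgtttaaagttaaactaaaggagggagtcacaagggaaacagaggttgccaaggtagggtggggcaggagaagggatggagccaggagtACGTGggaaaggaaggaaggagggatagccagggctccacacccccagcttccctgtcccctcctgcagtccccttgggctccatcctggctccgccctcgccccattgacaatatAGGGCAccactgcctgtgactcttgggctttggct
AGGNCA matched 2 times in the Plin2 window and 1 time in the Rbp7 window, and 51.3% of all 32851 promoter windows of this length hold it. ACGTG matched 1 time in the Rbp7 window, as in 16.6% of all windows, and these letters are not in the Plin2 window. The full repeat AGGNCANAGGNCA was found in 0.338% of all windows and in none of the 8 windows of the 5 genes. These matches describe letters and are not evidence of binding. No promoter is shown for Angptl4, Fabp4, Fabp5, Gpihbp1 or Lpl.

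Across lineages the genes split into endothelial genes and genes shared with other stroma. In all 4 libraries 6 of the 10 (Gpihbp1, Cd36, Fabp4, Rbp7, Aqp7 and Pparg) were highest in endothelial cells among the lineages with at least 20 cells. Fabp5 was highest in TECs in all 4 libraries, though in Z/Z 1 it was nearly level with endothelial cells (ratio 1.07). Lpl was highest in fibroblasts in 3 libraries and nearly level between endothelial cells and fibroblasts in WT 2, where the ratio was 1.04. Angptl4 and Plin2 had no fixed order in the WT libraries. Both were highest in endothelial cells in both Z/Z libraries.

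**Figure D1:**
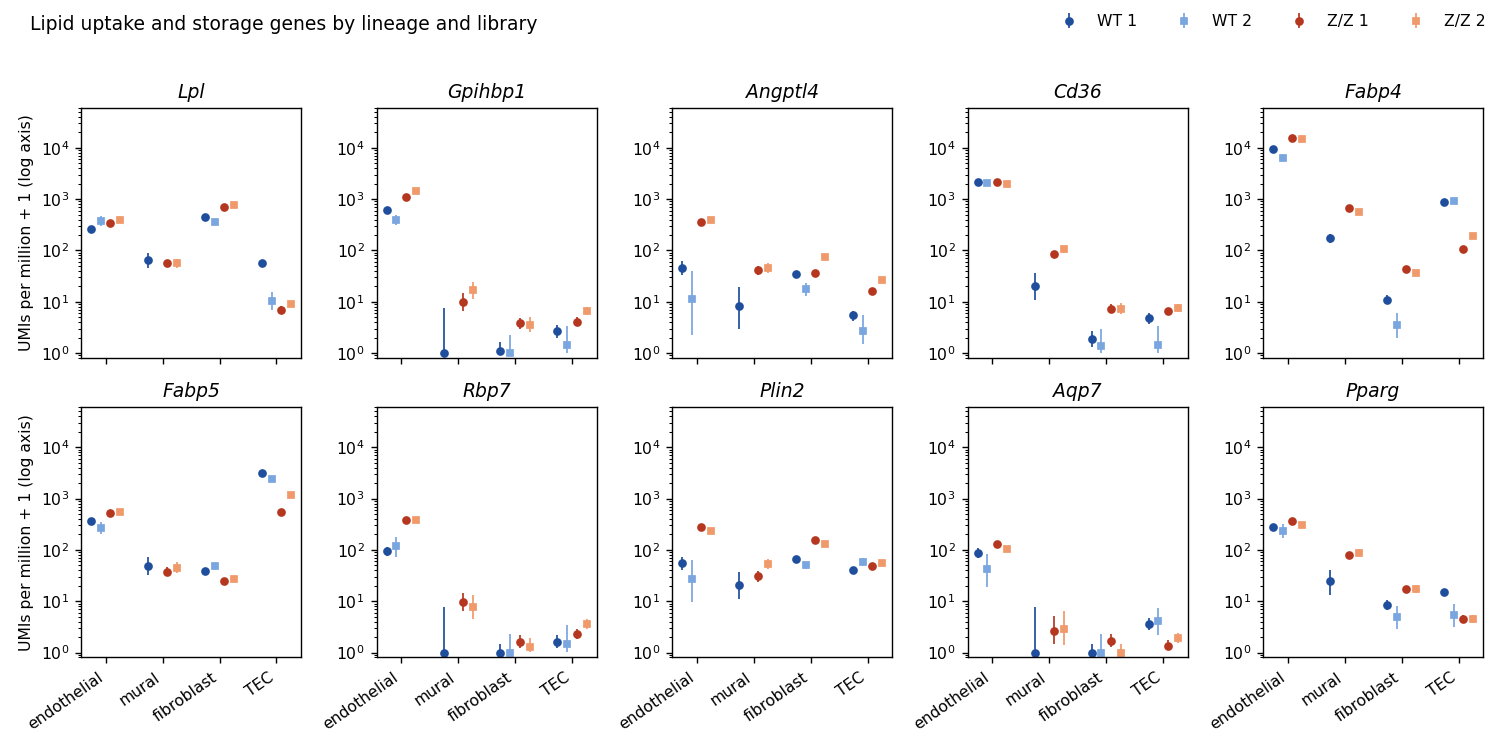
CPM plus 1 (log axis) of the 10 genes in the summed cells of each lineage, with 1 point per library and exact Poisson 95% intervals that cover counting error only; a lineage with under 20 cells in a library is not drawn. Rbp7, Gpihbp1 and Cd36 stand far higher in endothelial cells than elsewhere, Fabp5 is highest in TECs and Lpl is shared by fibroblasts and endothelial cells.

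Lpl on chromosome 8 (68880491 to 68907448, plus strand, GRCm38) was found across the stroma. In fibroblasts it stood at 458 and 365 CPM in WT 1 and WT 2 and at 701 and 783 CPM in Z/Z 1 and Z/Z 2. In endothelial cells it stood at 256 and 379 CPM in the WT libraries and at 336 and 384 CPM in the Z/Z libraries, where the groups overlapped. After each cell was thinned to 2000 UMIs, 51.4%, 44.3%, 59.0% and 67.8% of fibroblasts (WT 1, WT 2, Z/Z 1, Z/Z 2) held an Lpl UMI, against 5.37%, 2.97%, 1.43% and 1.77% of TECs. Lpl was thus detected in a far larger share of fibroblasts than of TECs. The TEC level is not a background, since it differed by cluster. In a TEC cluster led by Tbata, Prss16 and Psmb11, Lpl stood at 124 and 37.9 CPM in WT (51 and 6 cells). It stood there at 8.52 and 18.7 CPM in Z/Z.

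Gpihbp1, the endothelial anchor of the lipase (chromosome 15, 75596628 to 75599481, plus strand), was nearly limited to endothelial cells. Its endothelial level was 619 and 389 CPM in the WT libraries and 1103 and 1470 CPM in the Z/Z libraries. Relative to that level, TECs held 0.264%, 0.111%, 0.282% and 0.379%, below the 0.605%, 0.693%, 0.733% and 0.931% at which the 8 endothelial marker genes summed stood in the same TECs (single markers ranged from 0% to 2.01%). Whether TEC values of this size come from free RNA was not tested. Cd36 lies on chromosome 5 (17781690 to 17888801, minus strand) and Rbp7 on chromosome 4 (149449687 to 149454978, minus strand). Both were also low in TECs, with at most 0.338% and 0.659% of the endothelial level. Rbp7 in WT 1 (0.615%) lay just above the markers (0.605%). Of the 46 Cd36 UMIs in WT 1 TECs, 17 lay in 15 cells of a cluster led by Trp63 and Adamts19.

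Fabp4 and Fabp5 lie near each other on chromosome 3 (10204088 to 10208576, minus strand, and 10012548 to 10016607, plus strand) but differed in where they were found. Fabp4 reached 9457 and 6202 CPM in the endothelial cells of WT 1 and WT 2 and 15251 and 15179 CPM in those of Z/Z 1 and Z/Z 2. Fabp5 reached 3186 and 2376 CPM in WT TECs and 557 and 1160 CPM in Z/Z TECs, and 268 to 539 CPM in endothelial cells. In fibroblasts Fabp5 stood between 23.4 and 46.6 CPM.

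Plin2 (chromosome 4, 86648386 to 86670060, minus strand) was seen in each of these lineages. In the thinned cells a Plin2 UMI was found in 11.9%, 9.38%, 20.4% and 16.8% of fibroblasts and in 6.48%, 7.92%, 5.29% and 7.10% of TECs (WT 1, WT 2, Z/Z 1, Z/Z 2). In endothelial cells the shares were 8.57%, 0%, 32.2% and 28.4%, and for the 25 thinned cells of WT 2 the exact 95% interval reached 13.7% of cells with a Plin2 UMI. Before thinning 25.7%, 16%, 49.6% and 46.4% of endothelial cells held one.

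Pparg (chromosome 6, 115360951 to 115490399, plus strand, overlapped on the other strand by Gm44079) and Aqp7 (chromosome 4, 41033074 to 41048139, minus strand) were highest in endothelial cells. Pparg stood at 282 and 237 CPM in WT and 363 and 310 CPM in Z/Z endothelium. In mural cells it stood at 23.3 and 17.4 CPM in WT and 77.4 and 87.4 CPM in Z/Z. Aqp7 stood at 85.4 and 42.1 CPM in WT and 132 and 102 CPM in Z/Z endothelium, and in fibroblasts it had 0, 0, 8 and 0 UMIs.

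The genotype difference in endothelium, on which the genes were chosen, is given here by value. Angptl4 (chromosome 17, 33773750 to 33781830, minus strand) stood at 44.8 CPM in WT 1 (42 UMIs) and 10.5 CPM in WT 2 (2 UMIs), against 354 and 395 CPM in Z/Z 1 and Z/Z 2 (log2 fold change 3.33 ± 0.33 SE). Plin2 stood at 53.4 and 26.3 CPM in WT and at 273 and 235 CPM in Z/Z (2.43 ± 0.28). Rbp7 stood at 92.9 and 116 CPM in WT and at 387 and 389 CPM in Z/Z (1.95 ± 0.23). Both Z/Z libraries lay above both WT libraries for these genes.

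The other 7 genes had smaller differences in endothelium. Gpihbp1 differed by 1.31 ± 0.26 on the log2 scale, Fabp4 by 0.96 ± 0.25, Fabp5 by 0.69 ± 0.22 and Aqp7 by 0.66 ± 0.29. Cd36, at 2136 and 2073 CPM in WT and 2158 and 1944 CPM in Z/Z, had a difference of -0.03 ± 0.20, and its groups overlapped. Lpl and Pparg had differences of 0.25 ± 0.22 and 0.35 ± 0.22. The same fit across all 11348 genes called 1.94% of them, 0.969% higher in Z/Z and 0.969% lower. The choice of the 10 genes used this contrast, and no call on them is read from it.

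**Figure D2:**
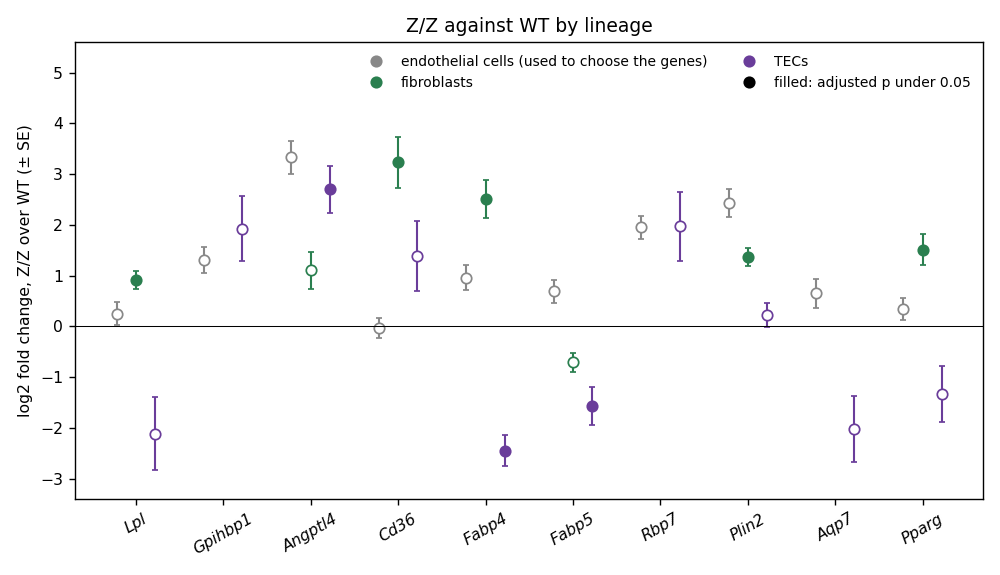
Log2 fold change of Z/Z over WT (± SE) of each gene in summed endothelial cells, fibroblasts and TECs, with filled points past an adjusted p of 0.05; endothelial points are a description and always open. Gpihbp1 in fibroblasts is not drawn because the WT libraries held 1 UMI, and Rbp7 and Aqp7 did not pass the low-count filter there, while Fabp4 lies above 0 in fibroblasts and below 0 in TECs.

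The endothelium was not a uniform population, and its clusters differed between the genotypes. Endothelial cells fell into 8 clusters, again built without the 10 genes. A capillary cluster led by Angptl4, Plin2 and Cldn5 held 5.50% and 0% of the WT endothelial cells (6 of 109 and 0 of 25) and 23.0% in each Z/Z library (160 of 695 and 154 of 670). A capillary cluster led by Timp4 and Tcf15 held 4 and 0 WT cells against 157 and 118 Z/Z cells, and a capillary cluster led by Penk and Esm1 held 1 and 0 against 67 and 54. Summed WT and Z/Z endothelium thus mix these clusters in different parts, and no endothelial cluster had 20 cells in both WT libraries.

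Angptl4 and Plin2 shared their peak. In the Angptl4 and Plin2 cluster, Angptl4 stood at 608 CPM in the 6 cells of WT 1 (exact Poisson 95% interval 401 to 884), at 1079 CPM in Z/Z 1 and at 1329 CPM in Z/Z 2. Plin2 stood at 405, 763 and 686 CPM in the same cells. Rbp7 stood there at 630.3, 365 and 443 CPM and had its highest pooled level, 1053 CPM, in the Penk and Esm1 cluster.

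Outside these clusters both WT libraries held some cells, though few, and the values are set side by side. In a capillary cluster led by the interferon-induced genes Ifit2 and Cxcl9 (26 and 9 WT cells) Angptl4 stood at 25.1 and 0 CPM in WT and at 100.4 and 169 CPM in Z/Z. In a capillary cluster led by Lrrc3b (28 and 5 WT cells, 28 and 21 Z/Z cells) it stood at 6.04 and 78.1 CPM in WT (1 and 2 UMIs) and at 0 and 93.8 CPM in Z/Z (0 and 10 UMIs), where the groups overlapped. In arterial cells Angptl4 had 0 UMIs in both WT libraries (19 and 5 cells, intervals up to 22.8 and 61.6 CPM) and stood at 201 and 157 CPM in Z/Z 1 and Z/Z 2. Arterial Rbp7 stood at 117 and 134 CPM in WT and at 707 and 577 CPM in Z/Z. In venous cells Angptl4 stood at 17.5 and 0 CPM in WT and at 19.3 and 25.5 CPM in Z/Z, with intervals that overlap. The venous cells had the lowest pooled level of each of these 3 genes among the endothelial clusters.

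Most of the 10 genes were higher in summed capillary cells than in other endothelial cells. The capillary name joins unlike clusters. With libraries pooled, the Penk and Esm1 cluster stood below arterial cells for Lpl (60.3 against 135 CPM) and Pparg (105 against 351). It was also lower for Aqp7, Cd36, Fabp4 and Angptl4, and higher for Gpihbp1, Rbp7, Fabp5 and Plin2. In both Z/Z libraries all 10 genes were higher in capillary than in venous cells, and 9 of them did so in all 4 libraries, Plin2 being the exception because WT 2 had 0 Plin2 UMIs in 14 capillary cells. Against arterial cells, 7 genes (Angptl4, Fabp4, Fabp5, Cd36, Gpihbp1, Lpl and Aqp7) were higher in capillary cells in all 4 libraries, and Plin2 and Pparg were in both Z/Z libraries. In WT 2, with 5 arterial and 14 capillary cells, Pparg stood at 334 CPM in arterial and 238 CPM in capillary cells. Rbp7 was the gene that stood higher in arterial than in capillary cells in both Z/Z libraries. Lpl in capillary cells stood at 470 and 832 CPM in WT and 519 and 608 CPM in Z/Z, against 3.50 and 0 CPM and 10.7 and 13.2 CPM in venous cells. Fabp4 in capillary cells stood at 14044 and 10329 CPM in WT and 20836 and 21832 CPM in Z/Z.

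**Figure D3:**
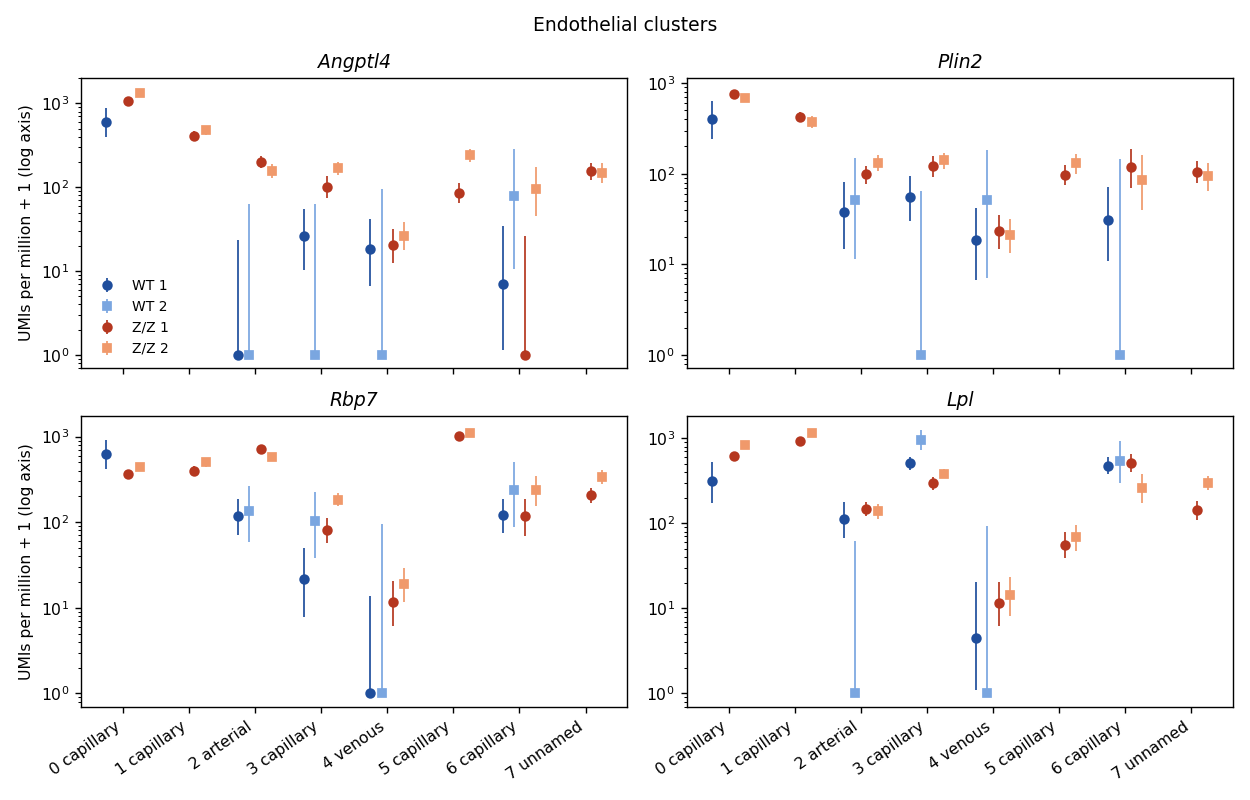
CPM plus 1 (log axis) of Angptl4, Plin2, Rbp7 and Lpl in the 8 endothelial clusters, 1 point per library with at least 5 cells and exact Poisson 95% intervals. Angptl4 and Plin2 are highest in cluster 0, Rbp7 in cluster 5, and all 4 genes are low in the venous cluster.

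Co-detection within cells is given as a description for Z/Z endothelium. Of thinned endothelial cells with an Angptl4 UMI, 55.1% in Z/Z 1 (196 cells) and 54.2% in Z/Z 2 (192 cells) also held a Plin2 UMI, against 22.9% and 17.5% of the cells without one. For Rbp7 the shares were 42.9% and 39.1% against 27.9% and 26.5%. Fabp4, Fabp5, Cd36, Gpihbp1, Lpl, Aqp7 and Pparg were also detected more often in cells with an Angptl4 UMI, in both Z/Z libraries. For Lpl the shares were 64.3% and 62.0% against 33.1% and 29.6%. Co-detection with Angptl4 was thus not particular to Plin2 and Rbp7. The shares join all endothelial clusters, between which these genes differ, and the part of the clusters in them was not tested. WT 1 and WT 2 had 6 and 1 cells with an Angptl4 UMI, too few to compare.

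The genes most like each of the 3 leading genes were sought over 21 sums of a lineage in a library. Rbp7 was most like Grrp1 (Pearson r = 0.98), Robo4 (0.97), which encodes an endothelial receptor, and Fam167b (0.96). Angptl4 was most like Tpm3-rs7 (0.84), Pttg1ip (0.83) and Nfe2l2 (0.83), the last a regulator of antioxidant genes. Plin2 was most like Gm36595 (0.76), Gm47405 (0.74) and Tex29 (0.74). Sums of 1 library share its depth and free RNA, so these values are descriptions.

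Adipocytes express most of these genes and were looked for. No cluster took the name of adipocytes. In endothelial sums the 8 adipocyte markers had 0 UMIs in both WT libraries and summed to 10.8 and 8.78 CPM in Z/Z 1 and Z/Z 2, with Lep at 0 in all 4. Of these Z/Z sums Cidea held 4.84 and 3.55 CPM, and Adipoq had 5 and 4 UMIs. In TECs the 8 markers summed to 32.1 and 44.2 CPM in WT and to 35.7 and 43.6 CPM in Z/Z. In barcodes not called as cells, with at most 100 UMIs, they summed to 9.67 and 9.99 CPM in WT. The Z/Z sums in such barcodes were 34.3 and 23.3 CPM. Hypoxia-response genes, another setting in which Angptl4 and Plin2 are known to rise, summed to 1110.0 and 1105 CPM in WT and to 1204 and 1285 CPM in Z/Z endothelium. Their part in the endothelial values was not tested.

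In fibroblasts, where the genes had not been chosen, Plin2, Lpl and Pparg were higher in Z/Z. Plin2 stood at 64.3 and 49.1 CPM in WT and at 153 and 130.0 CPM in Z/Z, and rose by 1.37 ± 0.18 on the log2 scale (edgeR adjusted p = 0.00418), a call kept without each library in turn (adjusted p from 0.00702 to 0.0318). Lpl, with the levels given above, rose by 0.91 ± 0.17 (adjusted p = 0.0230), a call lost without WT 1 (0.0772), WT 2 (0.155) or Z/Z 2 (0.0793). Pparg stood at 7.36 and 3.86 CPM in WT and at 16.4 and 16.4 CPM in Z/Z (1.51 ± 0.30, adjusted p = 0.0301). For each of the 3 genes, which had already been called, both Z/Z libraries lay above both WT libraries. The share of all genes separated in this way is not given, so the separation adds no support to the calls. The 8 adipocyte markers summed to 0.482 and 0.701 CPM in WT and to 4.51 and 5.19 CPM in Z/Z fibroblasts, with 6, 6, 1 and 3 of them at 0 (WT 1, WT 2, Z/Z 1, Z/Z 2) and Lep at 0 in all 4, and their part in these differences was not tested.

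Cd36, Fabp4 and Gpihbp1 also passed the test in fibroblasts, but at a small share of their endothelial levels. Fabp4 stood at 9.89 and 2.45 CPM in WT and 42.2 and 35.6 CPM in Z/Z, at most 0.277% of its endothelial level, while the endothelial markers summed stood at 3.08% to 4.23% in fibroblasts. Single markers differed widely in this share, from 0% to 27.3% in the WT libraries and from 0.125% to 19.0% in the Z/Z libraries. With doublets kept, Fabp4 in the Z/Z fibroblasts stood at 222 and 57.1 CPM. Cd36 had 7, 1, 77 and 48 UMIs and Gpihbp1 had 1, 0, 34 and 19 (WT 1, WT 2, Z/Z 1, Z/Z 2), and both passed the low-count filter through the Z/Z libraries alone. In empty droplets Cd36 stood at 50.4 and 27.6 CPM in WT and 235 and 207 CPM in Z/Z, and Fabp4 at 526 and 209 CPM against 1953 and 2160 CPM. Once the empty-droplet profile was subtracted, none of these 3 genes passed the filter.

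Angptl4 in fibroblasts stood at 33.8 and 16.5 CPM in WT and 35.7 and 73.1 CPM in Z/Z, and its difference of 1.11 ± 0.36 missed the threshold (adjusted p = 0.145). Fabp5 stood at 38.2 and 46.6 CPM in WT and 23.4 and 25.9 CPM in Z/Z (-0.71 ± 0.19, adjusted p = 0.0878), and with cells of at least 500 genes kept WT 2 stood at 29.4 CPM. Rbp7 and Aqp7 did not pass the low-count filter. Of the 8 genes that did, 6 were called higher and 0 lower (1 lower at an unadjusted p under 0.05, and 0 with DESeq2), in a fit that called 3.23% of 13890 genes, 1.91% of them higher and 1.32% lower, and the median log2 fold change was 1.44 for the 8 genes and 0.005 for all genes. Because Cd36 and Gpihbp1 passed only where they were high, and Fabp4 did not pass the filter after that subtraction, this count and median are not taken as support.

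The fibroblast clusters also differed between genotypes. When fibroblasts were clustered again, a cluster led by Csf2rb and Pcdh15 held 267 and 108 WT cells against 8 and 10 Z/Z cells. Its cells were not traced to the lineage clusters used next. Those clusters can therefore still hold different cells in the genotypes. Within clusters that held at least 20 cells in every library, a check added after seeing the data, Plin2 was higher by 1.52 in the Inmt and Fgf10 cluster (adjusted p = 0.0307) and by 1.43 in the Postn cluster (adjusted p = 0.00573), and its difference in the Pi16 cluster was 0.39 (adjusted p = 0.490). Lpl differed by 0.19, 0.66 and 0.35 in these clusters (adjusted p from 0.179 to 0.719), so its call did not hold within any of them. Pparg differed by 0.69 and 1.05 in the Inmt and Pi16 clusters (adjusted p = 0.452 and 0.313) and did not pass the filter in the Postn cluster. The Pparg call was also lost when any 1 library was left out (adjusted p from 0.0584 to 0.106).

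By fibroblast subset, Lpl and Pparg were highest in the intFB-like cells, named from Bmper, Fgf7, Fgf10, Gpx3, Inmt and Penk. Lpl stood there at 891 and 1122 CPM in WT and 1148 and 1123 CPM in Z/Z, against 339 to 396 CPM in the Pi16 and Dpp4 (capsFB-like) cells. Pparg stood at 26.7 and 16.4 CPM in WT and 45.8 and 32.0 CPM in Z/Z intFB-like cells and at most at 11.7 CPM in capsFB-like cells. Plin2 in the Postn and Aspn (medFB-like) cells stood at 51.1 and 34.8 CPM in WT and at 222 and 188 CPM in Z/Z, and in capsFB-like cells at 24.0 and 35.6 CPM against 37.6 and 29.0 CPM, where the groups overlapped. The medFB-like cells joined a pair of clusters, and that led by Wdr95 held 6 and 3 WT cells against 193 and 47 Z/Z cells. The intFB-like cells joined clusters as well, and that led by Cxcl13 held 1 and 0 WT cells against 46 and 50 Z/Z cells.

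In TECs, Fabp4 and Fabp5 were lower and Angptl4 was higher in Z/Z. Fabp4 stood at 862 and 931 CPM in WT and at 104 and 195 CPM in Z/Z (log2 fold change -2.45 ± 0.31, edgeR adjusted p = 0.00987). The Z/Z level was 0.684% and 1.28% of that in endothelial cells, beside 0.733% and 0.931% for the endothelial markers, and the call was lost after the empty-droplet profile was subtracted (-4.50, adjusted p = 0.160). Fabp5, with the levels given above, fell by 1.56 ± 0.37 on the log2 scale (adjusted p = 0.0391), a call lost without WT 1 (0.0660) or without Z/Z 1 (0.0957). Angptl4 stood at 4.41 and 1.73 CPM in WT and at 15.4 and 25.9 CPM in Z/Z (2.70 ± 0.47, adjusted p = 0.0182). The fit called 21.9% of 18832 genes, 9.96% higher and 11.9% lower, and 3 of the 10 genes were called, 1 higher and 2 lower, which is little more than that share of all genes.

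The other 7 genes missed the threshold in TECs. Lpl stood at 54.8 and 9.53 CPM in WT and 5.96 and 8.13 CPM in Z/Z (-2.11 ± 0.72, adjusted p = 0.0908), with WT 1 far above WT 2, which stood at 16.4 CPM with cells of at least 500 genes kept. Plin2 stood at 40.0 and 57.2 CPM in WT and at 47.2 and 54.7 CPM in Z/Z, and its groups overlapped (0.23 ± 0.23, adjusted p = 0.506). With cells of at least 500 genes kept, Plin2 stood at 40.3 and 30.8 CPM in WT and at 49.0 and 64.9 CPM in Z/Z, where the groups no longer overlapped (0.81, adjusted p = 0.0513). Pparg, Aqp7, Cd36, Gpihbp1 and Rbp7 had adjusted p-values from 0.0781 to 0.203 at most at 14.0 CPM in any library, and Rbp7 passed the low-count filter through the Z/Z libraries alone.

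The TEC sums were made of different clusters in the genotypes, and the levels of these genes differed between the clusters. A cluster led by S100a8 and Dpp10 (cluster 8) held 290 of 557 and 49 of 103 TECs in WT 1 and WT 2, against 66 of 1937 and 87 of 1536 in Z/Z 1 and Z/Z 2. Fabp4 stood in it at 1393 and 1487 CPM in WT and at 890 and 1094 CPM in Z/Z, and Fabp5 at 3499 and 3316 CPM in WT and at 3774 and 4717 CPM in Z/Z. Within this cluster the differences were -0.54 for Fabp4 (adjusted p = 0.354) and 0.31 for Fabp5 (adjusted p = 0.516), a check added after seeing the data. That fit called 1 of 12771 genes, so its p-values do not show that either difference is absent. Fabp5 was also high in the cortical genes' cluster led by Tbata, Prss16 and Psmb11 (cluster 16), at 6513 and 2905 CPM in WT and 1749 and 3419 CPM in Z/Z.

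Angptl4 in TECs had its highest pooled level, 35.3 CPM, in a cluster led by Gpc5 and Col12a1 (cluster 0). It stood there at 16.5 and 15.9 CPM in WT and at 25.1 and 52.7 CPM in Z/Z. In WT 1 the 12 cells of the Nos1 cluster (cluster 1) stood at 16.8 CPM (2 UMIs), level with cluster 0. Cluster 0 held 59 of 557 and 11 of 103 WT TECs, against 694 of 1937 and 588 of 1536 Z/Z TECs. The part of this shift in the Angptl4 call was not tested. In the S100a8 and Dpp10 cluster Angptl4 stood at 3.19 and 0.697 CPM in WT and at 4.28 and 2.68 CPM in Z/Z. As a share of the endothelial level, Angptl4 in Z/Z TECs was 4.35% and 6.55%, above the 0.733% and 0.931% of the endothelial markers, and its call held after the empty-droplet profile was subtracted (adjusted p = 0.0360). It was lost without Z/Z 1 (adjusted p = 0.0573) and without Z/Z 2 (adjusted p = 0.0866). Markers of myeloid cells summed to 326 and 751 CPM in WT TECs and to 68.5 and 121 CPM in Z/Z TECs, and immediate early genes to 8353 and 10139.8 CPM against 21827 and 19433 CPM; their part in these values was not tested.

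**Figure D4:**
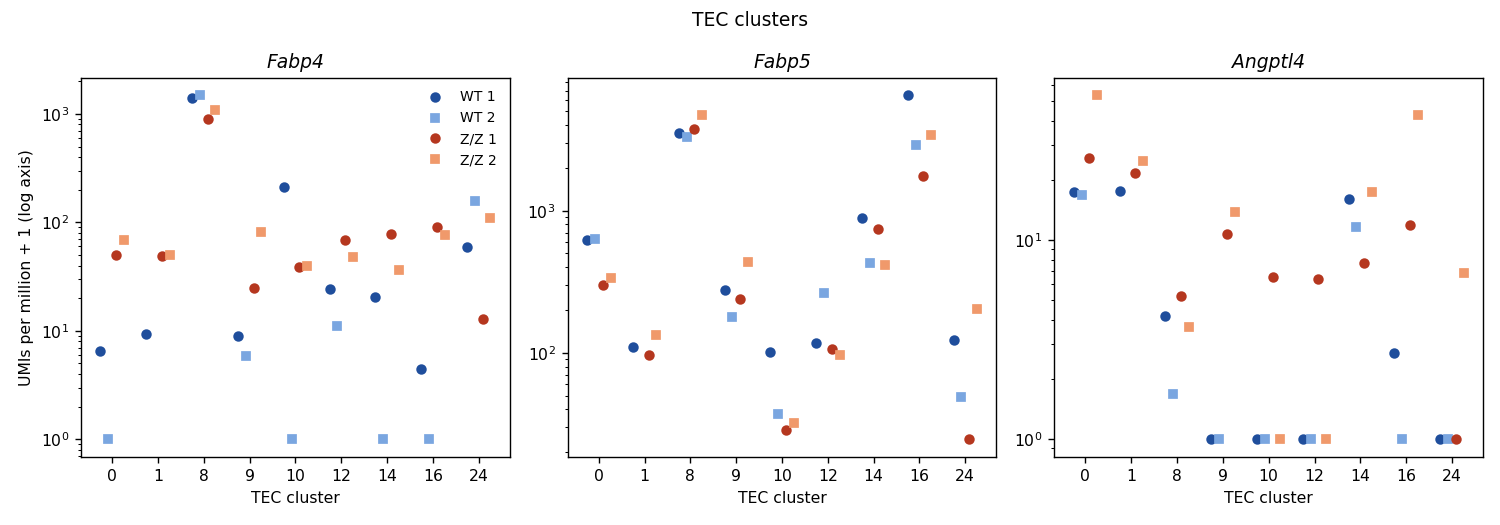
CPM plus 1 (log axis) of Fabp4, Fabp5 and Angptl4 in the 9 TEC clusters, 1 point per library with at least 5 cells. Fabp4 is high in cluster 8, Fabp5 in clusters 8 and 16, and WT and Z/Z points of cluster 8 lie close together for both.

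Mural cells, the smooth muscle cells and pericytes around vessels, had 67 cells in WT 1 and 11 in WT 2, too few for a test, against 394 and 295 in the Z/Z libraries. Angptl4 stood at 7.17 CPM (4 UMIs) and 0 CPM in WT and at 40.3 and 45.0 CPM in Z/Z. Cd36 stood at 19.7 and 26.1 CPM in WT and 86.0 and 104 CPM in Z/Z, and Plin2 at 19.7 and 0 CPM against 29.6 and 52.5 CPM. As a share of the endothelial level, mural Angptl4 was 11.4% in each Z/Z library and mural Cd36 was 3.99% and 5.33%, where the endothelial markers summed stood at 3.87% and 4.81% (single markers from 0.332% to 35.1%). With cells of at least 500 genes kept, mural Angptl4 in Z/Z 1 stood at 26.6 CPM, and with doublets kept at 25.5 CPM, still above both WT libraries (at most 6.66 CPM).

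Free RNA carried these genes as well, and more so in the Z/Z libraries. In barcodes not called as cells with at most 100 UMIs, 9 of the 10 genes stood higher in both Z/Z libraries than in both WT libraries, Fabp5 being the exception at 896 and 496 CPM in WT and 348 and 584 CPM in Z/Z. Angptl4 stood at 6.62 and 6.46 CPM in WT and 73.3 and 96.8 CPM in Z/Z. Rbp7 stood at 6.11 and 2.35 CPM in WT and 45.1 and 83.4 CPM in Z/Z. The share of all genes higher in this way is not given, so the count does not set the 9 genes apart. In the same barcodes the 8 endothelial markers summed to 341 and 356 CPM in WT, against 814 and 985 CPM in Z/Z. Marker sums of mural cells, fibroblasts and TECs also rose, and those of myeloid cells and thymocytes fell. The endothelial share of all kept cells was 7.48%, 5.48%, 15.6% and 19.3% (WT 1, WT 2, Z/Z 1, Z/Z 2). Its part in the values was not tested. The part of free RNA in the sums of endothelial cells, fibroblasts and TECs, estimated from markers of the other lineages, was 0% to 7.76%.

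Other genes of these pathways were read from lists. In TECs, among uptake and transport genes 4 of 20 tested were higher and 1 lower, among droplet genes 2 of 18 higher and 2 lower, among Pparg partners and targets 4 of 23 higher and 1 lower, and among retinoid genes 1 of 9 higher and 1 lower. Those with the smallest adjusted p that rose included Lrp1, a lipoprotein receptor (19.6 and 22.1 CPM in WT, 101 and 92.7 in Z/Z), Cidea, a droplet-fusion protein (4.98 and 5.63, 32.4 and 36.4), Slc27a1, a fatty acid transporter (25.8 and 30.3, 61.3 and 55.0) and Apoe, an apolipoprotein (412 and 460, 781 and 1018), with adjusted p from 0.00703 to 0.0151. Those that fell were Stra6, a receptor for retinol-carrying protein (29.0 and 30.8 CPM in WT, 5.56 and 7.19 in Z/Z), Dgat2, which makes triglyceride (78.2 and 50.3, 10.5 and 13.6), Fabp3 (23.2 and 20.4, 3.41 and 1.84), Cpt2, of mitochondrial fatty acid import (18.0 and 23.4, 7.42 and 8.80) and Abhd5, a lipase cofactor (37.8 and 27.3, 16.0 and 16.9), with adjusted p from 0.00891 to 0.0473. The medians of these lists lay between -0.74 and 0.52, against -0.002 for all genes, and the shares called are near the background of this fit.

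In fibroblasts, where 1.91% of all genes were called higher and 1.32% lower, the same lists were read. Among uptake and transport genes 2 of 19 were higher and 1 lower, among droplet genes 1 of 18 higher, among Pparg partners and targets 0 of 22 higher (4 at an unadjusted p under 0.05, 0 with DESeq2) and 1 lower, and among retinoid genes 3 of 7 higher. Lipg, endothelial lipase, stood at 3.01 and 2.80 CPM in WT and at 18.6 and 21.4 CPM in Z/Z (2.82 ± 0.29, adjusted p = 0.00119). The retinoid genes that rose included Dhrs3, which reduces retinal (12.8 and 13.7 CPM in WT, 41.4 and 51.5 in Z/Z) and Rbp4, the plasma carrier of retinol (3.14 and 3.16, 11.1 and 18.1). Plin1, an adipocyte droplet coat, had 0.121 and 0 CPM in WT and 1.89 and 4.25 CPM in Z/Z (adjusted p = 0.0314), a call that DESeq2 did not make. Meox2, a transcription factor, fell from 31.7 and 43.1 CPM to 17.5 and 18.7 CPM.

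Further lists are set beside the shares of all genes called higher, 9.96% in TECs and 1.91% in fibroblasts, and lower, 11.9% and 1.32%. Of the 5 relatives of Angptl4 tested in each lineage, 0 passed in TECs and 0 in fibroblasts (edgeR), 0 and 1 had an unadjusted p under 0.05, and 0 and 0 passed with DESeq2. Angptl2, the most abundant of them, stood at 88.4 and 71.5 CPM in WT and 66.4 and 90.9 CPM in Z/Z fibroblasts. Of the hypoxia-response genes 1 of 14 was higher and 2 lower in TECs, and 2 of 12 higher and 1 lower in fibroblasts, with Ndrg1 falling from 369 and 389 CPM to 171 and 234 CPM and Adm rising from 35.5 and 38.6 CPM to 76.7 and 81.0 CPM in fibroblasts. Of the glucocorticoid-response genes 3 of 9 were higher in TECs and 0 of 9 in fibroblasts (2 at an unadjusted p under 0.05, 1 with DESeq2), and of the immediate early genes 9 of 13 and 1 of 13. The medians in TECs were 0.01, 0.26 and 1.13 for these lists, and in fibroblasts 0.22, -0.32 and 0.11.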

How the data were processed

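Thymi of several mice were pooled per library. The authors deposited filtered and raw matrices of UMI counts per gene and barcode, made with Cell Ranger 7.01 (submitters' processing notes) on mm10, and metric tables whose percent columns the authors' pipeline wrote. The kit is named v2 in the labels and v3 in the study's methods. Cells with at least 1000 detected genes and at most 20% mitochondrial UMIs were kept. Because the automatic doublet threshold marked 97 cells, the 3.9% with the highest scores (399) were removed, leaving 9846 of 13981. Clusters were made with scanpy 1.11.5 and leidenalg 0.10.2 without the 10 genes and the pathway and context genes, and were named by markers, with naming thresholds set after seeing the data. UMIs were summed per lineage and library, since cells are not replicates. CPM are UMIs per 1000000 of such a sum, and intervals are exact at 95%, for counting error only. edgeR 4.0.16 (R 4.3.3) with the quasi-likelihood test and Benjamini-Hochberg adjustment over all tested genes, threshold 0.05, compared Z/Z with WT in TECs and fibroblasts, and was fitted in endothelial cells only for fold changes and the share of all genes called. It was tested on simulated data. Lineages with under 20 cells in a library were not tested. The alternatives were DESeq2 1.42.0, no low-count filter, a replicate block, each library left out, cells thinned to 2000 UMIs, shared barcodes kept once, the empty-droplet profile subtracted, at least 500 genes, and doublets kept. The fits within clusters and the test between TECs and fibroblasts were added after seeing the data. Named pathway genes were, per lineage and direction, up to 5 with the smallest adjusted p, of which some are not reported here. The 10 genes and the lists were chosen with earlier results of these data known, so lists are described by counts and medians. Gene positions are from GENCODE vM21.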

Additional observations from a re-analysis of the deposited data

Results flagged for a closer look

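The Z/Z against WT effect differed between fibroblasts and TECs for 5 of the 10 genes, by an edgeR interaction test with the library as a block, chosen after seeing the data, which called 2088 of 18463 genes. The difference, fibroblasts minus TECs on the log2 scale, was 5.11 for Fabp4 (adjusted p = 0.000692), 1.15 for Plin2 (adjusted p = 0.0402), 2.91 for Pparg (adjusted p = 0.00253), 2.89 for Lpl (adjusted p = 0.00613) and -1.68 for Angptl4 (adjusted p = 0.00713). Fabp4 had -2.45 in TECs and 2.51 in fibroblasts, where it did not pass the filter after the empty-droplet profile was subtracted. Clusters of both lineages differed in size between the genotypes, and their part in these differences was not tested in this fit.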

How the results depend on the processing

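Of 228 values of the 10 genes in TECs and fibroblasts under the alternatives, 181 kept their direction and side of the threshold. Of the rest, 28 lost the call, 15 gained one and 4 changed sign. A gene that did not pass the low-count filter in an alternative, or had no adjusted p, is in none of these counts. Gpihbp1 in fibroblasts thus entered with 9 of 15 alternatives, Cd36 with 12, and Fabp4 and Pparg with 14 each. Angptl4 in TECs entered with 12 of 13. The 4 that changed sign were Plin2 in TECs without WT 1 (-0.047, in a range of -0.047 to 0.53 with a library left out) and with thinned cells (-0.34), Fabp5 in TECs within cluster 8 (0.31) and Angptl4 in fibroblasts within cluster 5 (-0.24). The cause was not tested. The 4118 genes called in TECs became 1 within cluster 8 and 576 to 4178 with a library left out. The 3 of the 10 genes called there became 5 without the low-count filter, 5 after the empty-droplet profile was subtracted, 0 within cluster 8 and 1 to 5 with a library left out. In fibroblasts the 449 genes became 1348 without the filter, 139 within cluster 4, 236 within cluster 5 and 128 to 407 with a library left out. The 6 of the 10 genes called there became 3 with thinned cells, 3 after subtraction, 2, 1 and 2 within clusters 4, 5 and 7, and 2 to 5 with a library left out. The 220 genes called in endothelial cells became 738 without the filter, where the median of all genes was 0.32 against 0.02, 11 with thinned cells, 74 with at least 500 genes and 77 to 624 with a library left out. Cluster numbers are those of the lineage clusters: 8 is the S100a8 and Dpp10 TEC cluster, and 4, 5 and 7 are the Inmt, Postn and Pi16 fibroblast clusters. Where a library was left out, the lone library of its group was assumed to vary like the others. Mural cells had no test. Of their values, Angptl4 in Z/Z 1 (40.3 CPM) became 26.6 with at least 500 genes and 25.5 with doublets kept, and Fabp4 in Z/Z 1 (665 CPM) became 431 and 456.

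The replicate numbers do not pair the samples: deviations of equal-numbered libraries correlated at -0.0892 in TECs, -0.0354 in fibroblasts and -0.000537 in endothelial cells. With the replicate block 2417 genes were called in TECs, 429 in fibroblasts and 367 in endothelial cells, and Fabp5 in TECs lost its call (-1.63, adjusted p = 0.0665). The small numbers of WT endothelial cells, 109 and 25, limit the endothelial values, as do clusters of different size in the genotypes.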
